A study of Mus musculus with 46 samples.

Results

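Upper-layer chandelier cells are the GABAergic neurons that were isolated from the border of layer 1 and layer 2/3 in the infralimbic and prelimbic areas of mouse frontal cortex, after tamoxifen induction of an Nkx2-1 driver at embryonic day 17.5. They were taken as all cells whose name in the count table carries the prefix of this population, which gave 80 of the 584 cells, in 5 libraries of 16 cells each. The cells carried Nkx2.1-CreER; Ai14, with Ai15 in place of Ai14 in the label of library 3. Libraries 1 and 2 came from animal 13, labelled as 50 days old, and libraries 3, 4 and 5 from animal 14, labelled as 58 days old for library 3 and 40 days old for libraries 4 and 5. Both animals were labelled female. A single animal cannot have been 58 and 40 days old at dissection, so the labels of animal 14 conflict. They were kept as given, and library 3 was also tried as its own replicate.

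The upper cells were set against 6 other labelled types of the same cortex. Deep chandelier cells carried the same Nkx2.1-CreER; Ai14 alleles and induction day but came from layers 5 and 6 of animals 11 and 12, male and 34 days old (52 cells, 4 libraries). PV basket cells carried Pv-iresCre; Ai14 and came from animals 7 to 10, of both sexes and 58 to 83 days old (127 cells, 16 libraries). Long-projecting cells carried Sst-Flp; Nos1-Cre; Ai65 and came from 4 males of 28 or 29 days (136 cells, 9 libraries). Martinotti cells (Sst-Flp; CR-Cre; Ai65, females of 35 days), interneuron-selective cells (Vip-Flp; CR-Cre; Ai65, females of 32 days) and CCK basket cells (Vip-Flp; CCK-Cre; Ai65, males of 39 and 40 days) completed the 6, each from 2 animals and 4 libraries. A driver marks every cell in which its recombinase was active, so the Nkx2-1 label rests on induction late in gestation together with position in the cortex. Type, age and sex were confounded, and upper chandelier cells shared a flow cell with long-projecting cells and with no other type. In each comparison, cell type therefore cannot be told apart from age, sex or flow cell, or from several of them.

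Chandelier cells are inhibitory interneurons whose axons end in vertical rows of boutons, called cartridges, on the axon initial segment of pyramidal neurons, where action potentials start. They arise late in development from Nkx2-1 progenitors of the medial ganglionic eminence, the embryonic zone that also gives rise to Pvalb and Sst interneurons. Like PV basket cells they fire fast, and many but not all of them contain parvalbumin.

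The 5 upper libraries held 916788 to 2339398 expected counts, 7047687 in all, and single cells ranged from 10616 to 397732 counts around a median of 62608. Counts were obtained for 17066 genes in these cells. All 5 libraries used the same 16 cell barcodes, so a barcode names a cell only within its library. Cells of 1 upper library differed from each other by 1.34 to 1.71 times the sampling noise, and upper libraries by 13.8 to 19.7 times. This ratio grows with depth, and libraries hold far more counts than cells, so the 2 ranges cannot be set against each other. Cells of a library share an animal and a preparation. Counts were therefore summed per library for description and per animal for tests (n = 2 animals for upper chandelier cells), and cells were never used as replicates. In such sums fewer cells with a transcript and less RNA per cell cannot be told apart. Levels are scaled to library totals as CPM, and values of different genes are not set against each other because the files carry no length correction. A level of 0 over all upper cells allows up to 0.426 CPM, the value of 3 counts over the type.

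Several libraries stood apart from the rest. Library 2 carried red blood cell RNA: 8 of 9 listed red blood cell genes had counts in upper cells, with Hbb-bh1 at 0, and their summed level was 16641 CPM in library 2 against 52.4 to 376 CPM in the other 4 upper libraries. The other types ranged from 5.00 to 390 CPM per library. All 16 cells of library 2 carried these counts, at 12758 to 82783 CPM with a median of 15180 CPM. The cell that held 3.01% of the library's counts held 15.0% of the red blood cell counts. Library 1 carried genes of other interneuron types: Vip, a neuropeptide gene, stood at 374 CPM there and at 0 in libraries 2 to 5, and Cnr1, which encodes a cannabinoid receptor, at 794 CPM against at most 8.79 CPM. The chemokine gene Cxcl14 stood at 189 CPM in library 1 against at most 1.09 CPM, and Nr2f2, a nuclear receptor gene of the caudal eminence lineage, at 102 CPM against at most 1.71 CPM. Vip counts were found in all 16 cells of library 1, at 103 to 861 CPM, but unevenly. The cell that held 18.7% of the library's counts held 43.1% of its Vip counts and 37.6% of its Cnr1 counts. Counts in all cells of a library do not show that each cell made the RNA. Sharing of RNA between the cells of a library was not tested. Among the deep chandelier libraries, library 2 held the chandelier markers Pthlh and Unc5b at 1.53 and 0.766 CPM, and library 4 held Vip at 1918 CPM and Cnr1 at 911 CPM. Every comparison was repeated without upper library 2 and, as an alternative chosen after seeing the data, without these deep libraries.

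Apart from these, summed markers of glia, vessel cells and excitatory neurons in the upper libraries lay within the range of the other types' libraries. Summed levels were 22.9 to 141 CPM for oligodendrocyte genes (Mag, Mobp and Opalin at 0), 55.7 to 176 CPM for astrocyte genes (Gfap at 0), 4.79 to 58.9 CPM for microglial genes (Tmem119 at 0), 10.9 to 37.4 CPM for endothelial and pericyte genes (Vtn at 0) and 172 to 253 CPM for excitatory neuron genes (Neurod6 and Fezf2 at 0). Over the libraries of the other types the medians were, in the same order, 55.8, 59.5, 8.55, 17.4 and 172 CPM. In the tests below, the astrocyte gene Aldh1l1 was called higher against the other types. The excitatory neuron gene Nrgn was called higher against deep chandelier cells. The 10 genes shared by GABAergic neurons summed to 6130 to 7462 CPM. Other interneuron type genes summed to 1396 CPM in library 1 and to 427 to 728 CPM in libraries 2 to 5. The part of these cells or of free RNA in the results below was not tested, except through the leave-out values given.

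The 6 chandelier markers given for these cells were present in all 5 libraries. Their summed level was 2196, 2273, 2338, 3224 and 3304 CPM in upper libraries 1 to 5, against 395 to 1493 CPM in deep chandelier libraries, 92.3 to 316 CPM in PV basket libraries and 31.9 to 160 CPM in long-projecting libraries. The lowest upper library thus lay above the highest library of these 3 types. Pthlh, which encodes parathyroid hormone-like hormone, stood at 463, 499, 552, 770.1 and 660.3 CPM in upper libraries 1 to 5, whereas interneuron-selective cells, the next type, averaged 164 CPM. The zinc finger transcription factor gene Trps1 stood at 1085, 934, 922, 968 and 1461 CPM, whereas deep chandelier cells averaged 697 CPM. Unc5b, which encodes a netrin receptor, stood at 199.6, 306, 243, 629 and 365 CPM, and deep chandelier cells followed at 160.1 CPM. Hs3st4, a heparan sulfate sulfotransferase gene, stood at 201, 217, 378, 521 and 447 CPM, against 48.8 CPM in deep chandelier cells. The copine gene Cpne5 stood at 191, 230, 194, 287 and 264 CPM, against 126 CPM in Martinotti cells. Nkx2-1 itself, the homeobox gene behind the driver, stood at 57.2, 88.5, 48.0, 48.7 and 108 CPM, and deep chandelier cells averaged 29.5 CPM. For each of the 6 genes, all 5 upper libraries exceeded the means of all 6 other types. This is a description, since the markers were chosen with earlier results of these data known.

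**Figure D1:**
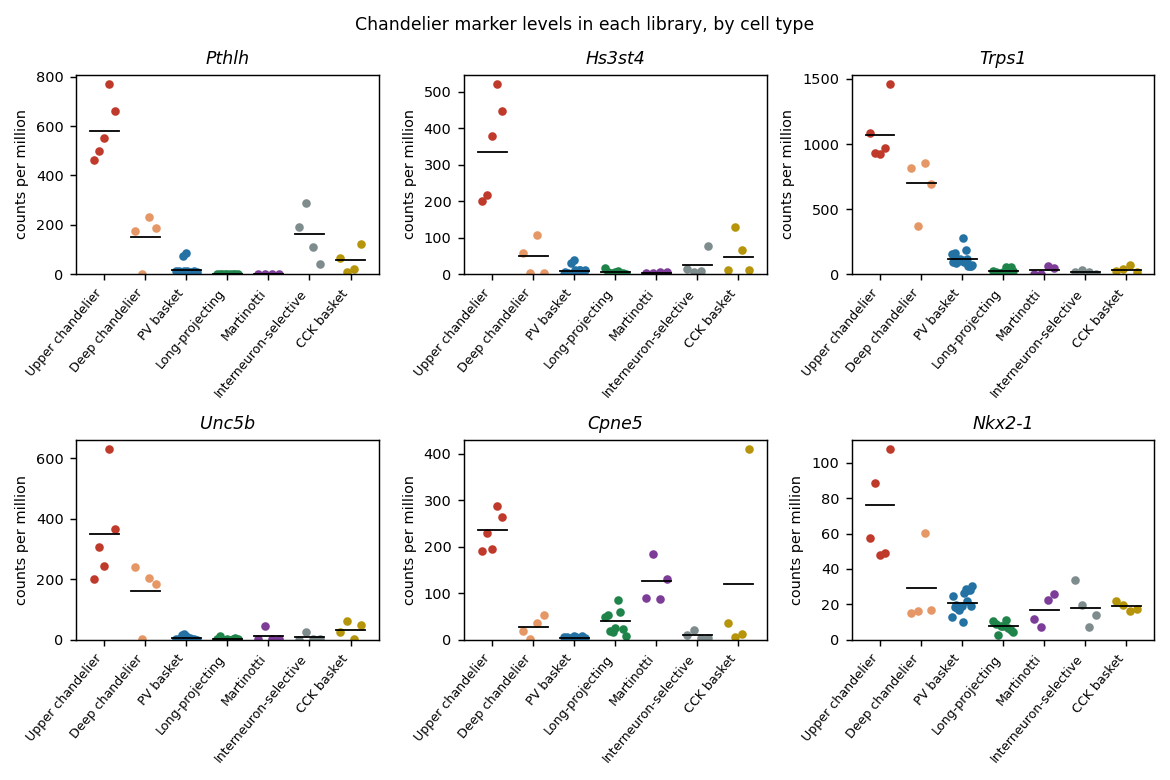
Level of the 6 chandelier markers in CPM (linear axis from 0, 1 panel per gene) in each library of upper chandelier, deep chandelier, PV basket, long-projecting, Martinotti, interneuron-selective and CCK basket cells. Each point is 1 library and the black bar is the mean over animals (PV basket animals merged as 2 replicates). The 5 upper libraries lie at 463 to 770.1 CPM for Pthlh and at 922 to 1461 CPM for Trps1, and deep chandelier library 2 lies near 0 for Pthlh and Unc5b.

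Against the mean of the other 6 types, the genes called higher in upper chandelier cells included Pthlh, Cntnap5b, Erbb4, Kit and Fos. Of 15533 genes tested with edgeR's quasi-likelihood test and Benjamini-Hochberg adjustment, 296 passed an adjusted p of 0.05 (1.91%), 243 higher (1.56%) and 53 lower (0.341%). DESeq2 called 300 higher and 246 lower. At an unadjusted p under 0.05 there were 1966 genes, and the median log2 fold change of all genes was 0.05. The count ranged from 47 without animal 14 to 448 without deep chandelier animal 12, and it was 85 without animal 13 and 193 without library 2. It was 120 without PV basket animals 7 and 8, 131 without animals 9 and 10, 164 without animal 15, 150 without animal 16 and 184 without animal 17. The fitted log2 fold change averages the 6 types on the log scale, so it can differ in size or sign from the fold between mean levels, and it is given only for genes counted in every type. Genes named below were chosen to have all 5 upper libraries on 1 side of every other type's mean, so that separation is a condition of being named.

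Ibsp, which encodes bone sialoprotein, a secreted mineral-binding protein known from bone, showed the highest fold. It stood at 12.5, 54.7, 201, 43.9 and 265 CPM in upper libraries 1 to 5, against 1.46 CPM in PV basket cells, the next type, and its mean of 109 ± 94.0 CPM (SD, n = 2) was 433-fold the mean of the other types (edgeR adjusted p = 0.000861). DESeq2 gave it an adjusted p of 0.24. The libraries of this gene differed by over an order of magnitude among themselves. The keratin gene Krt12, known from corneal epithelium, stood at 37.4, 74.4, 299, 168 and 107 CPM in upper libraries, with deep chandelier cells next at 21.2 CPM, and was 24.2-fold higher (edgeR adjusted p = 0.00117). Pthlh, shown above, was 8.89-fold higher at 579 ± 129 CPM (SD, n = 2; edgeR adjusted p = 1.18e-05), and Hs3st4 was 14.2-fold higher (log2 fold change 4.31 ± 0.40, SE; edgeR adjusted p = 6.88e-05).

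Zfp804b, a zinc finger protein gene, stood at 1169, 1343, 1909.9, 2391 and 2221 CPM in upper libraries, with deep chandelier cells next at 1129 CPM. It was 5.14-fold higher (log2 2.95 ± 0.19, edgeR adjusted p = 2.23e-06). Nrsn1, which encodes neurensin, a vesicle membrane protein of neurites, stood at 1067, 1391, 1336, 1512 and 1338 CPM, a narrow range, and was 4.34-fold higher (log2 2.54 ± 0.17, edgeR adjusted p = 2.23e-06). Deep chandelier cells averaged 974 CPM. Crtac1, which encodes a secreted cartilage matrix protein, stood at 496, 779, 753, 1123 and 1046 CPM and was 8.36-fold higher (log2 3.53 ± 0.41, edgeR adjusted p = 0.00042), and Martinotti cells were next at 192 CPM. Cntnap5b, of the contactin-associated family of adhesion proteins, stood at 1014, 675, 966, 639 and 1147 CPM, against at most 184 CPM in any other type, and was 5.93-fold higher (log2 2.50 ± 0.26, edgeR adjusted p = 0.000182). Plcxd3, which encodes a phospholipase domain protein, stood at 329.6, 468, 1019, 533 and 421 CPM and was 5.15-fold higher (edgeR adjusted p = 0.000182). Library 3 was the high one for Plcxd3, and no upper library reached down to the 257 CPM of deep chandelier cells.

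Of the other markers, Trps1 was 6.95-fold higher (log2 4.08 ± 0.43, edgeR adjusted p = 0.000182), Unc5b 9.58-fold (log2 4.62 ± 0.68, adjusted p = 0.00335), Cpne5 4.38-fold (log2 2.99 ± 0.57, adjusted p = 0.0176) and Nkx2-1 4.12-fold (log2 2.06 ± 0.43, adjusted p = 0.0274). These markers were chosen with earlier results of these data known, so their count of 6 of 6 higher is a description. Pdlim3, which encodes a muscle actinin-binding protein, was 17.5-fold higher (log2 4.68 ± 0.75, adjusted p = 0.00547), and Pygm, the muscle form of glycogen phosphorylase, was 8.78-fold higher at 39.3 to 63.4 CPM in every library (log2 3.07 ± 0.65, adjusted p = 0.0292). The secreted thrombospondin gene Thbs1 was 10.7-fold higher (adjusted p = 0.0348), and Ramp3, which encodes a partner protein of calcitonin-family receptors, was 9.72-fold higher (log2 4.47 ± 1.03, adjusted p = 0.0423). Gpr12, an orphan receptor gene, was 5.74-fold higher (adjusted p = 0.00392), Fam163b 5.69-fold (0.036), the zinc finger gene Zfp868 5.92-fold (0.045) and the phosphatase gene Dusp14 4.98-fold (0.0482). Without library 2 the adjusted p was 0.052 for Thbs1, 0.097 for Ramp3, 0.056 for Zfp868, 0.082 for Dusp14 and 0.084 for Nkx2-1. Without library 5 it was 0.095 for Fam163b, 0.099 for Dusp14 and 0.079 for Nkx2-1, without library 3 it was 0.16 for Zfp868, and without library 4 it was 0.05002 for Ramp3. Without deep library 4 the calls of Thbs1, Ramp3, Zfp868, Dusp14 and Nkx2-1 ended at adjusted p of 0.0505, 0.066, 0.087, 0.085 and 0.053. Of the 20 genes named by the rule as higher, 10 passed both without animal 13 and without animal 14.

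**Figure D2:**
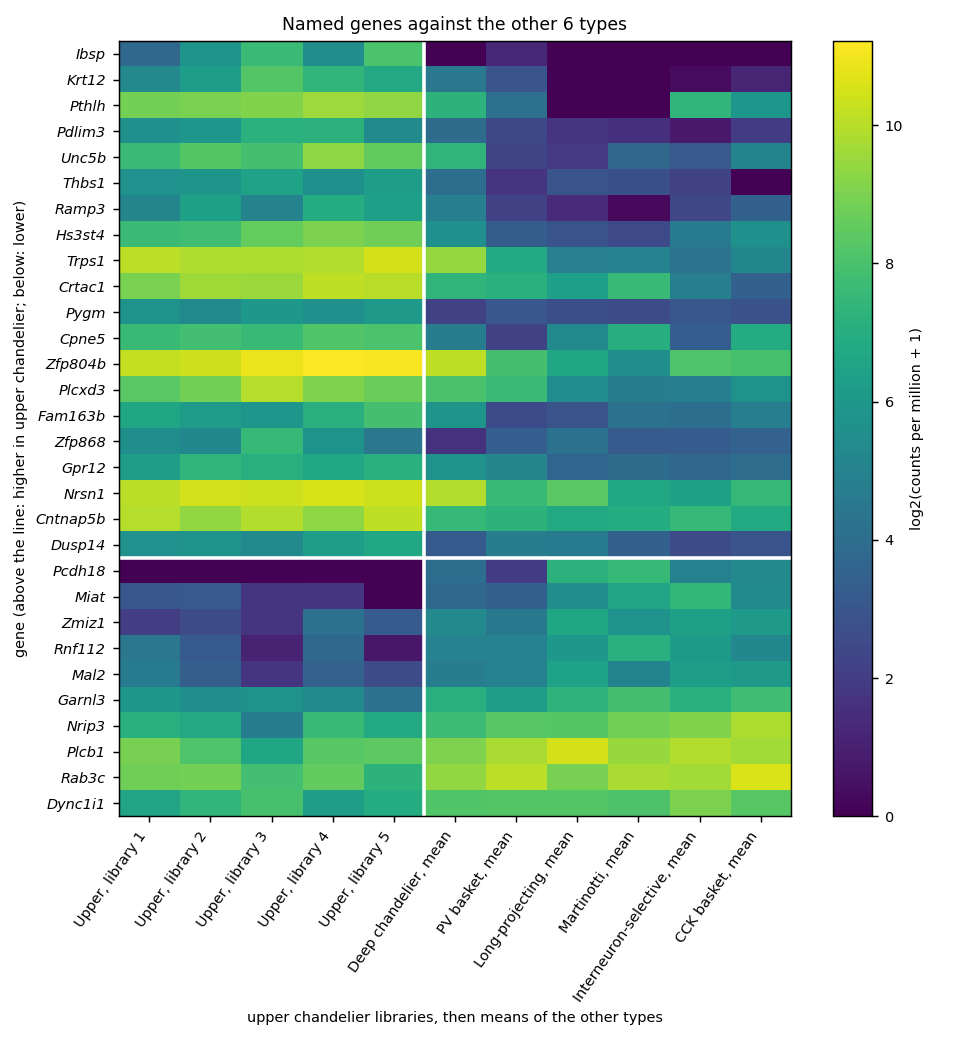
Colour map of log2(CPM + 1) for the 20 genes named as higher (above the white line) and the 10 named as lower (below it), with the 5 upper chandelier libraries as columns on the left and the means of the other 6 types on the right. Brighter is higher. Nrsn1 lies at 1067 to 1512 CPM in upper libraries, and Pcdh18 is at 0 in all 5.

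The genes called lower in upper chandelier cells included Pcdh18, Garnl3, Rab3c and Plcb1. Pcdh18, a protocadherin gene, had no count in any of the 5 upper libraries, against a mean of 68.8 CPM in the other types, and was at least 162-fold lower against the level of 3 counts over the type (edgeR adjusted p = 0.0435). Garnl3 stood at 61.3, 47.9, 53.4, 39.9 and 17.1 CPM in upper libraries, against 161 CPM in the other types, 3.78-fold lower (log2 -1.92 ± 0.28, adjusted p = 0.00317). The synaptic vesicle GTPase gene Rab3c stood at 438, 473, 235, 366 and 154 CPM against 922 CPM, 2.61-fold lower (log2 -1.39 ± 0.26, adjusted p = 0.0153). Library 5 held the lowest value of both Garnl3 and Rab3c, and no upper library overlapped the lowest type mean. The long noncoding RNA gene Miat was 13.8-fold lower (adjusted p = 0.037), the transcriptional coregulator gene Zmiz1 8.25-fold (0.0311), the ring finger gene Rnf112 7.34-fold (0.0286) and the membrane trafficking gene Mal2 5.50-fold (0.0222). Nrip3 was 3.85-fold lower (0.00736), Plcb1, which encodes a phospholipase C downstream of Gq-coupled receptors, 2.94-fold (0.0118) and the dynein subunit gene Dync1i1 2.34-fold (0.0199). All 10 of these calls ended without animal 14, and Pcdh18, Rnf112 and Mal2 also without library 2, at adjusted p of 0.08, 0.1 and 0.098. Pcdh18 also failed without library 5 (0.055), Rnf112 without library 4 (0.054), and without deep library 4 the adjusted p was 1 for Pcdh18, 0.054 for Miat and 0.0505 for Dync1i1. Without deep library 2 it was 0.067 for Plcb1.

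Among 42 transcription regulators, 9 were higher and 1 lower, against 1.56% and 0.341% of all genes. Their median log2 fold change was 0.25 against 0.05 over all genes. Of the list genes followed, here and in the list paragraphs below, most lost their call without animal 13. Most also lost it without animal 14. Lhx6, a homeobox gene of the medial eminence lineage, stood at 209, 209, 185, 319 and 193 CPM in upper libraries against 88.4 CPM in the other types (edgeR adjusted p = 2.81e-05), with library 4 the high one and no count in interneuron-selective or CCK basket cells. Deep chandelier cells stood higher in mean, at 248 CPM. The nuclear receptor gene Rora was 3.75-fold higher (log2 2.19 ± 0.30, adjusted p = 0.00149) and Tox3, a chromatin-binding protein gene, had a log2 fold change of 3.18 ± 0.29 (adjusted p = 5.75e-05). Mef2c, an activity-dependent transcription factor gene, stood at 1567 to 1835 CPM in upper libraries (log2 1.51 ± 0.22, adjusted p = 0.00317). Trps1 and Nkx2-1 are members of the list, and Bcl11b (adjusted p = 0.0292), Nfib (0.0483) and Id2 (0.0369) completed the 9. Id2, an inhibitor of helix-loop-helix factors, averaged 114 CPM in upper cells, below the other-type mean of 227 CPM that deep chandelier cells raised at 1141 CPM, and was called higher on the log scale only. Zbtb16, a zinc finger repressor gene, fell by 1.76 ± 0.41 on the log2 scale (adjusted p = 0.045). Bcl11b failed without library 2 (0.065) and without deep library 4 (0.0511), and Zbtb16 without library 2 (0.24), deep library 2 (0.16) or deep library 4 (0.11). Id2 failed without library 1 (0.061) or library 4 (0.087), and Nfib without library 1 (0.056), library 3 (0.067), library 5 (0.051), deep library 2 (0.056) or deep library 4 (0.072).

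Immediate early genes, which neurons switch on within minutes of activity or handling and which encode transcription factors and phosphatases, were higher in 7 of 17 tested members of an 18-gene list, and 0 were lower, against 1.56% of all genes higher. The median log2 fold change of the list was 2.90 against 0.05 over all genes. Fos stood at 684, 1016, 969.7, 1367 and 3612 CPM in upper libraries 1 to 5, and averaged 1567 CPM against 407 CPM in the other types (3.86-fold, log2 2.16 ± 0.51, edgeR adjusted p = 0.047). Egr1 stood at 10.4, 262, 429.8, 729 and 1759 CPM, and averaged 639 CPM against 98.7 CPM (6.48-fold, log2 2.96 ± 0.45, adjusted p = 0.00391). Egr4 stood at 4.16, 64.1, 24.0, 59.1 and 332 CPM against 8.59 CPM (12.3-fold, log2 4.42 ± 0.59, adjusted p = 0.00148). In all 3 genes library 5 was the highest and library 1 the lowest, and library 1 lay at or below the mean of the other types for Egr1 and Egr4.

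The orphan nuclear receptor gene Nr4a1 showed the same order at its ends, with 1.04, 45.7, 14.2, 76.7 and 414 CPM against 12.7 CPM in the other types (9.33-fold, log2 3.98 ± 0.85, edgeR adjusted p = 0.0296). Its relative Nr4a3 had no count in libraries 1 and 3 and 86.8 CPM in library 5 (adjusted p = 0.0179). Dusp1, which encodes a MAP kinase phosphatase, stood at 31.2, 142, 22.9, 79.1 and 423 CPM against 45.3 CPM (3.54-fold, log2 2.42 ± 0.37, adjusted p = 0.00421), and Fosb at 16.6, 66.3, 90.5, 36.7 and 107 CPM against 7.68 CPM (8.55-fold, log2 3.60 ± 0.72, adjusted p = 0.0211). Fosb lay above the mean of the other types in all 5 libraries. Within library 5, Fos was found in every cell at 2908 to 4991 CPM, with 13.9% of its Fos counts in the cell that held 12.7% of the library's counts. Whether each cell made this RNA was not tested. Without library 5 the adjusted p was 0.19 for Fos, 0.25 for Nr4a1, 0.12 for Nr4a3 and 0.12 for Dusp1. Without library 2 it was 0.1 for Fos, 0.079 for Fosb, 0.085 for Egr1, 0.1 for Nr4a1 and 0.079 for Dusp1. Without animal 14, which gave libraries 3 to 5, all 7 calls ended, at adjusted p of 0.148 for Egr4 to 0.865 for Nr4a1. Without animal 13, which gave libraries 1 and 2, the calls of Fos (0.104), Fosb (0.0989) and Nr4a1 (0.0535) ended. Fos also failed with the scaling of DESeq2 (0.054), without a filter on low counts (0.062) and without deep library 2 (0.054) or 4 (0.06).

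Promoters of immediate early genes are known to bind CREB at cyclic AMP response elements, whose letters are TGACGTCA in full and TGACG as the core that the full motif contains. RefSeq promoters (GRCm38.p6, the 250 bases before the gene start) were at hand for 14 of the 18 listed genes. TGACG was found on either strand in 11 of the 14 against 19.8% of 27025 genes, and TGACGTCA in 2 (Btg2 and Dusp1) against 1.77%. The serum response element known as the CArG box was found in 1 (Egr2) against 1.62%. A match is a description of the letters and says nothing about binding in these cells. The sequences of Egr4, Nr4a1 and Dusp1, 3 of the genes called higher that hold more than 1 match, are shown 5′ to 3′ on the strand of the gene, with TGACG or its reverse complement CGTCA in capitals.
Egr4, chr6:85513590-85513839, minus strand: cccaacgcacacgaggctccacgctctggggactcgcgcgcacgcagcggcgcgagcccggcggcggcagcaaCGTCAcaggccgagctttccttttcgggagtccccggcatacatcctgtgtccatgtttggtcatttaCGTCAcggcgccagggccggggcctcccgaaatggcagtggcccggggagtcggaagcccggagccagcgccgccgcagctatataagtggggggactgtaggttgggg
Nr4a1, chr15:101266596-101266845, plus strand: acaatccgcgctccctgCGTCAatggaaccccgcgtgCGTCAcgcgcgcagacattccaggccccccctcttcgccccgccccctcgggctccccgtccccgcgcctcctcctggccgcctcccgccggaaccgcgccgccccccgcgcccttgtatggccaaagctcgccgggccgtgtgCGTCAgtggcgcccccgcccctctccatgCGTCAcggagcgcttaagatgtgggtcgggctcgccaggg
Dusp1, chr17:26508473-26508722, minus strand: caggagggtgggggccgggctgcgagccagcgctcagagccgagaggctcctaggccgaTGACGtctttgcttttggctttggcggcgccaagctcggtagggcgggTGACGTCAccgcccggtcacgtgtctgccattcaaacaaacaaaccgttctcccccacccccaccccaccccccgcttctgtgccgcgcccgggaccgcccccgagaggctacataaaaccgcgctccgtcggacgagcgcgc
Egr4 held 2 such stretches, Nr4a1 held 4 and Dusp1 held 2, of which 1 was the full TGACGTCA, which reads the same on both strands.

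**Figure D3:**
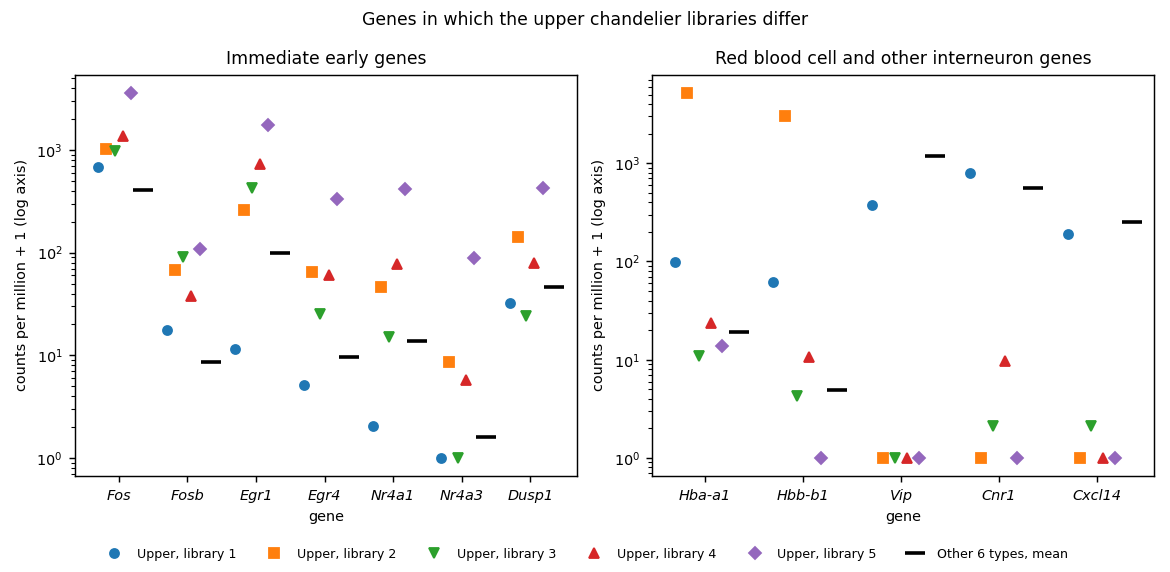
CPM + 1 (log axis, so that 1 stands for no count) of 7 immediate early genes (left) and of red blood cell and other interneuron genes (right), with 1 symbol per upper chandelier library and a black bar for the mean of the other 6 types. Library 5 is the highest for Fos at 3612 CPM, library 2 for Hba-a1 at 5206 CPM and library 1 for Vip at 374 CPM.

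Of the receptor genes, growth factors and receptor kinases were higher in 5 of 46 and lower in 0, against 1.56% of all genes higher and 0.341% lower, with a median log2 fold change of 0.36. Erbb4, the neuregulin receptor gene of many interneurons, stood at 2192, 2621, 3612, 3026 and 3677 CPM (log2 2.05 ± 0.29, edgeR adjusted p = 0.00224). Kit, which encodes the stem cell factor receptor, stood at 288, 324, 461, 360.3 and 510.2 CPM (log2 2.97 ± 0.31, adjusted p = 0.000182). CCK basket cells stood higher at 595 CPM, and PV basket, long-projecting and Martinotti cells at 3.15, 8.49 and 23.9 CPM, so that the fold against the mean of the types was 2.21. Tgfb3 stood at 96.7, 39.3, 100.3, 220.5 and 97.0 CPM (adjusted p = 0.0146), and Mdk (0.0119) and Bmp4 (0.0348) were also called, at 0.799 to 19.0 CPM and 3.42 to 36.1 CPM in upper libraries. Bmp4 failed with DESeq2 (0.12), without library 5 (0.093) and without deep library 4 (0.092). The VIP receptor gene Vipr2 stood at 8.32 to 87.1 CPM (6.88-fold, log2 5.14 ± 0.85, adjusted p = 0.00649), 1 of 2 peptide receptor genes called higher among 32.

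Transmitter receptors moved in both directions. Gabrd, which encodes the delta subunit of extrasynaptic GABA-A receptors, was 2.66-fold higher at 91.5, 131, 241, 158 and 186 CPM (edgeR adjusted p = 0.00439). It was the 1 called gene of 14 GABA receptor genes, against 1.56% of all genes higher. Deep chandelier and PV basket cells stood at similar means of 184 and 158 CPM. The AMPA receptor gene Gria4 was 2.17-fold higher (log2 1.12 ± 0.19, adjusted p = 0.00697), and the kainate receptor gene Grik2 was 2.32-fold lower (adjusted p = 0.0497). Metabotropic glutamate receptor genes, which encode G-protein-coupled receptors for glutamate, were lower in 3 of 7 and higher in 0, against 0.341% of all genes lower, and their median log2 fold change was -1.78. Grm7 fell by 1.87 ± 0.43 on the log2 scale (adjusted p = 0.0424), while Grm4 had a single count in upper cells against a mean of 14.9 CPM (adjusted p = 0.0146). Grm7 averaged 79.2 CPM in upper cells and 74.1 CPM in deep chandelier cells, while the other types ranged up to 771 CPM. Without library 2 the adjusted p was 0.28 for Grik2 and 0.078 for Grm7, and without library 5 it was 0.056 for Grm7. Grik2 also failed without library 4 (0.072), deep library 2 (0.23) and deep library 4 (0.0505).

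Among ion channels the calls, against 1.91% of all genes, were 1 of 38 voltage-gated potassium channel genes, 0 of 28 other potassium channel genes, 0 of 13 sodium channel genes and 3 of 16 calcium channel genes. Kcnd2, which encodes a subunit of the A-type potassium current, stood at 1071, 1203, 1133, 1506 and 1861 CPM and was 2.24-fold higher (log2 1.15 ± 0.20, edgeR adjusted p = 0.0113). Cacna1g, which encodes a T-type calcium channel, was 1.99-fold higher (log2 1.33 ± 0.28, adjusted p = 0.028), whereas the accessory subunit gene Cacnb4 fell by 1.02 ± 0.23 on the log2 scale (adjusted p = 0.0348) and the R-type channel gene Cacna1e was lower at 4.27 to 24.0 CPM in upper libraries (adjusted p = 0.0385). Cacna1g failed without library 2 (0.052), library 4 (0.19) or deep library 4 (0.061), and Kcnd2 without deep library 2 (0.06). Of 19 axon initial segment and L1-family genes, 2 passed, both higher in the fit, against 1.56% of all genes higher: the ankyrin gene Ank1 (adjusted p = 0.047) and Cntnap2 (0.043), and both failed without library 2, at 0.12 and 0.18, and without libraries 3 or 5, at 0.058 to 0.08. Both also failed with the DESeq2 scaling (0.059 and 0.072), and without deep library 2 (0.085 and 0.058) or 4 (0.072 and 0.068).

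Adhesion and synapse genes included the calsyntenin gene Clstn2, which stood at 764, 1012, 909, 952 and 1711 CPM (2.74-fold, log2 1.68 ± 0.17, edgeR adjusted p = 0.000165), and C1ql1, which encodes a secreted C1q-like ligand known to organise synapses. C1ql1 stood at 32.2, 39.8, 57.8, 17.6 and 18.4 CPM, against 6.76 CPM in deep chandelier cells, the next type, and was 26.4-fold higher (adjusted p = 0.000722). Library 5 was the high one for Clstn2, and libraries 4 and 5 were the low ones for C1ql1. In all, 4 of 48 synaptic organiser genes were higher and 1 was lower, against 1.56% and 0.341% of all genes, with a median log2 fold change of 0.25. The lower one was Nrxn2, a presynaptic neurexin gene (log2 -1.19 ± 0.21, adjusted p = 0.0118), and of the higher ones Slitrk2 (0.0492) failed without library 2 (0.38), library 3 (0.061) or library 5 (0.086) and with the DESeq2 scaling (0.054). Of guidance receptor genes, Unc5b and Unc5d (1.65-fold, log2 1.79 ± 0.29, adjusted p = 0.00629) were higher among 19, against 1.56% of all genes. The plexin gene Plxna2 was the 1 called gene of 27 semaphorin, plexin and neuropilin genes, against 1.91% of all genes called. Plxna2 stood at 61.3, 18.4, 34.9, 28.8 and 29.2 CPM against 113 CPM in the other types (log2 -1.80 ± 0.35, adjusted p = 0.02, and 0.12 without library 2). Of 29 cadherin genes 1 was higher and 2 were lower, against 1.56% and 0.341% of all genes. Pcdh19 was higher at 338 to 586 CPM (log2 2.06, adjusted p = 0.00526) and Cdh13 lower at 20.0 to 79.1 CPM (log2 -1.61, adjusted p = 0.0228). Pcdh18, given above, was the other lower one.

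Of 10 genes of GABA handling and GABAergic identity, 2 were higher and 0 lower in upper cells, against 1.56% and 0.341% of all genes. The homeobox gene Dlx1 was 2.08-fold higher (adjusted p = 0.0157). Npy, a neuropeptide gene, averaged 88.6 CPM in upper cells against 3840 CPM, with long-projecting cells holding most of that mean, and fell by 2.58 ± 0.51 on the log2 scale (adjusted p = 0.0203). Pvalb, the parvalbumin gene, stood at 498, 527, 397, 154 and 418 CPM, second to the 1023 CPM of PV basket cells, and was called higher against the mean of the other types (log2 4.49 ± 0.60, adjusted p = 0.00148). The haemoglobin genes Hba-a1 and Hbb-b1 also passed, at adjusted p of 0.0147 and 0.00424, with 5206 and 3032 CPM in library 2 against 0 to 97.7 CPM in the other upper libraries, and at 0.39 and 0.23 without it. The row of Hba-a1 equals that of Hba-a2, so these genes are not separable.

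Deep chandelier cells share the driver with upper chandelier cells and came from other layers. The upper cells were labelled female and 40 to 58 days old, and the deep cells male and 34 days old, on another flow cell. Layer, sex, age and flow cell therefore cannot be told apart in this comparison. Genes higher in upper cells included a prostaglandin transporter, a G-protein subunit and a secreted granin, and genes lower in upper cells included a Ras exchange factor, a mitochondrial carrier and the mu opioid receptor. By edgeR's quasi-likelihood test 440 of 15533 genes passed (2.83%), 273 higher (1.76%) and 167 lower (1.08%). With the size factors of DESeq2 in the same test the split was 236 higher and 261 lower. The median log2 fold change of all genes was 0.07, and 3415 genes had an unadjusted p under 0.05. Counts ran from 43 without animal 14 and 58 without animal 13 to 1343 without deep animal 12, a fit whose all-gene median moved to 0.46. They were 192 to 212 without any 1 of the PV basket or long-projecting replicates. Without both doubted deep libraries, an alternative chosen after seeing the data, 682 genes passed with an all-gene median of 0.18, and 281 of them were among the 440. In a fit of the 4 chandelier animals alone, 0 of 12468 genes passed, with 1661 at an unadjusted p under 0.05 and a smallest adjusted p of 0.296 (edgeR, no other tool was run on it). Libraries of the 2 types did not overlap in any gene named next, by the rule that named them.

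Slco2a1, which encodes a prostaglandin transporter, stood at 320.3, 171, 273, 263 and 283 CPM in upper libraries, against 3.57, 4.60, 3.79 and 7.69 CPM in deep libraries (52.1-fold, log2 5.39 ± 0.54, edgeR adjusted p = 0.000447). Sash1, a signalling scaffold gene, stood at 681, 468, 602, 607 and 369 CPM in upper libraries, against 5.72, 30.6, 20.7 and 6.04 CPM in deep libraries (31.6-fold, log2 4.68 ± 0.63, adjusted p = 0.00255). Lrrc17, which encodes a leucine-rich repeat protein, stood at 338, 229.5, 338, 357 and 197 CPM in upper libraries, against 16.4, 3.06, 10.7 and 5.49 CPM in deep libraries (29.3-fold, log2 4.57 ± 0.59, adjusted p = 0.0019). In these 3 genes every deep library was low, including deep libraries 1, 3 and 4, in which the markers Pthlh and Unc5b were not near 0. Gng4, a G-protein gamma subunit gene, stood at 130, 103, 68.7, 74.3 and 113 CPM in upper libraries, against 0, 0.766, 0 and 7.69 CPM in deep libraries (60.0-fold, adjusted p = 0.00572). The DNA repair gene Brca2 stood at 66.5 to 128 CPM in upper libraries, against 1.53 to 6.04 CPM in deep libraries (25.6-fold, adjusted p = 0.00435), and Vgf, a secreted granin gene, at 25.3 to 125 CPM against 1.65 to 7.66 CPM (21.7-fold, adjusted p = 0.00183). Gng4, Slco2a1, Sash1, Lrrc17, Brca2, Vgf and, among the lower genes, Rasgrf2 were the 7 named genes that passed both without animal 13 and without animal 14.

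Ibsp had no count in the 4 deep libraries and was at least 270-fold higher in upper cells (edgeR adjusted p = 0.0431, and 0.066 without library 2 and 0.22 with DESeq2). The transcriptional repressor gene Bcl6 averaged 50.2 CPM in upper cells, against 2 counts in all deep cells (adjusted p = 0.0488), and failed without library 1, 2, 3 or 5 or deep library 2, at 0.051 to 0.053. Ptprf, which encodes the receptor phosphatase LAR, was 33.6-fold higher (0.00939), the nuclease gene Aen 27.7-fold (0.0148), the stress response gene Gadd45g 28.9-fold (0.0187) and Arl2bp, which encodes a GTPase-binding protein, 26.7-fold (0.0431). Aen was high in library 4 at 160 CPM, while the other upper libraries stood at 14.6 to 51.3 CPM. Arl2bp failed without library 2 (0.054), library 3 (0.051) or deep library 4 (0.07).

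On the lower side, Rasgrf2, a Ras guanine nucleotide exchange factor gene, stood at 125, 31.2, 28.4, 20.8 and 9.51 CPM in upper libraries, against 363, 1131, 698 and 162 CPM in deep libraries (16.0-fold lower, log2 -4.32 ± 0.60, edgeR adjusted p = 0.00351). Library 1 was the high upper library. Slc25a33, a mitochondrial nucleotide carrier gene, was 4.87-fold lower (log2 -2.59 ± 0.43, adjusted p = 0.00939). Banf2 had 1 count in upper cells, against 9.33 to 174 CPM in deep libraries (adjusted p = 0.0123). Lypd6, of a family of nicotinic receptor modulators, was 15.1-fold lower (0.0456), Tmem90b 10.4-fold (0.0234), the kinase gene Cdkl2 8.02-fold (0.0306), the actin regulator gene Coro1a 7.08-fold (0.0187), Ppdpf 6.41-fold (0.0319), the ubiquitin ligase gene Chfr 5.64-fold (0.0227), Fbxo21 5.31-fold (0.0147) and the choline transporter-like gene Slc44a1 5.23-fold (0.0373). Of the 12 lower genes named by the rule, 1 passed both without animal 13 and without animal 14. Tmem90b failed without deep library 2 (0.062) and Lypd6 without library 3 (0.0501).

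**Figure D4:**
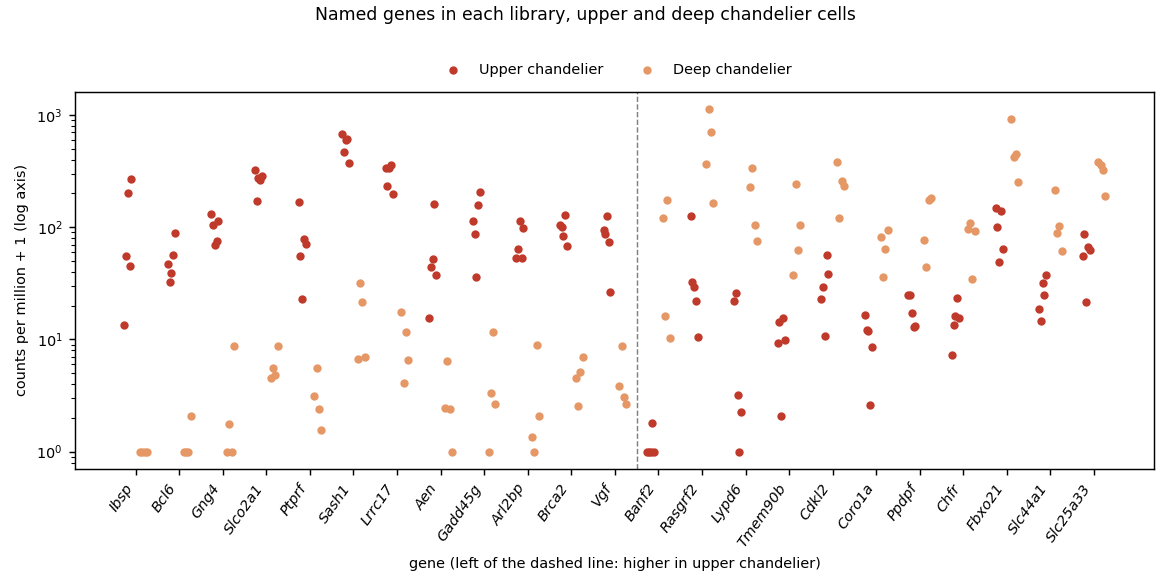
CPM + 1 (log axis, so that 1 stands for no count) of 23 of the genes named between upper and deep chandelier cells, 1 point per library, with the 5 upper libraries left of the 4 deep libraries for each gene and genes higher in upper cells left of the dashed line. Upper libraries of Slco2a1 lie at 171 to 320.3 CPM above the deep libraries, and those of Rasgrf2 at 9.51 to 125 CPM below them.

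None of the 6 chandelier markers passed between upper and deep cells, and their median log2 fold change was 1.37. Pthlh had 177, 1.53, 230.3 and 186 CPM in deep libraries (log2 1.64 ± 0.69, edgeR adjusted p = 0.189), Hs3st4 57.2, 3.06, 107 and 2.20 CPM (log2 2.49 ± 0.71, adjusted p = 0.073) and Trps1 813, 373, 857 and 695 CPM (log2 0.32 ± 0.72, adjusted p = 0.823). Unc5b had 240.2, 0.766, 204 and 182 CPM in deep libraries (adjusted p = 0.701), Cpne5 19.3, 0.766, 35.5 and 52.2 CPM (0.118) and Nkx2-1 15.0, 16.1, 60.2 and 16.5 CPM (0.349). Upper and deep libraries did not overlap in Pthlh, Hs3st4, Trps1 or Cpne5, whereas they overlapped in Unc5b and Nkx2-1. The share of all genes without such overlap was not computed, so this is a description and does not show a difference.

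Among lists, 4 of 49 transmitter release genes were higher and 5 were lower in upper than in deep cells, against 1.76% of all genes higher and 1.08% lower, with a median log2 fold change of 0.15. The presynaptic active zone gene Bsn (log2 1.76, edgeR adjusted p = 0.0416), the vesicle GTPase gene Rab3a (1.06, 0.0406) and Syngr1 (1.26, 0.0333) were higher. The active zone gene Rims1 (log2 -1.82, adjusted p = 0.0302), the synapsin gene Syn2 (-1.16, 0.00939), Syt7 (-1.34, 0.0477), Syt11 (-1.13, 0.0187) and Rab3c (-1.26, 0.046) were lower. Beside the same 1.08%, of 16 calcium channel genes 2 were lower, Cacna2d1 (log2 -2.51, 0.0032) and Cacnb4 (-2.15, 0.00246), and of 13 sodium channel genes 2 were lower, Scn2a1 (-1.35, 0.0232) and Fgf14 (-1.61, 0.0202). The perineuronal net link protein gene Hapln1 stood at 38.4 CPM in upper cells against 419 CPM in deep cells (log2 -3.77, adjusted p = 0.0229), 1 of 2 lower among 31 net and matrix genes, beside the 1.08% of all genes. For the genes of this paragraph, fits that left out an animal or a library were not followed.

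Oprm1, the mu opioid receptor gene, stood at 21.0 to 41.5 CPM in upper libraries, against 271, 436, 263 and 3.29 CPM in deep libraries (log2 -3.40 ± 0.71, edgeR adjusted p = 0.0254). The low deep library, number 4, lay below every upper library. Gad2, a GABA-synthesising enzyme gene, stood at 591, 499, 263, 564 and 305 CPM in upper libraries, against 1747, 1049, 1197 and 708 CPM in deep libraries, which did not overlap (log2 -1.73 ± 0.31, adjusted p = 0.014). That lack of overlap is a description, since its share over all genes was not computed. Kit was 5.30-fold higher in upper cells (log2 2.11 ± 0.53, adjusted p = 0.0477) and Egr4 74.3-fold (log2 5.94 ± 1.24, adjusted p = 0.0254), and at 0.066 and 0.074 without library 2. Kit also failed without library 3 or 5 (0.055 each), without deep library 4 (0.066) and with the DESeq2 scaling (0.057). The netrin gene Ntn1 (0.0403), the potassium channel gene Kcna6 (0.0438) and, on the lower side, the orexin receptor gene Hcrtr2 (0.0493) and Plxna2 (log2 -1.63 ± 0.41, 0.0499) passed near the threshold and failed without library 2, at 0.096, 0.12, 0.096 and 0.15. Ntn1 also failed without deep library 4 (0.066) or without library 4 (0.05002), Kcna6 without library 3 (0.053), library 5 (0.061) or deep library 2 (0.1), Hcrtr2 without library 3 (0.056) and Plxna2 without library 4 (0.054). Zbtb16 was lower at 17.7 to 73.8 CPM in upper libraries, against 43.6, 180.1, 35.5 and 708 CPM in deep libraries, which overlapped (log2 -2.98 ± 0.50, adjusted p = 0.00939), and failed without deep library 4 (0.096).

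PV basket cells target the soma and proximal dendrites of pyramidal neurons and share medial eminence origin, fast firing and parvalbumin with chandelier cells. Against them upper chandelier cells had more Kit, T-type and A-type channel genes and 3 of the 6 chandelier markers. By edgeR's quasi-likelihood test 62 genes passed (0.399%), 41 higher (0.264%) and 21 lower (0.135%), with 1423 at an unadjusted p under 0.05 and a median log2 fold change of all genes of -0.02. The count was 25 without animal 13, 12 without animal 14, 9 without PV basket animals 7 and 8, 7 without animals 9 and 10, 121 without animal 11 and 129 without animal 12. It was 32, 36, 25 and 23 without long-projecting animals 15, 16, 17 and 18. The 16 PV basket libraries formed 8 pairs that shared an index and carried the labels of different animals (7 and 8, or 9 and 10). The libraries of a pair differed by 1.16 to 1.58 times the sampling noise, against 6.6 to 23.6 times for all other PV basket pairs, so they may not be separate samples. Animals 7 and 8, and animals 9 and 10, were therefore merged into 1 replicate each, and the count was 392 with the 4 animals kept apart.

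Kit stood at 288 to 510.2 CPM in upper libraries, against 0 to 18.4 CPM with a median of 1.94 CPM in PV basket libraries, and averaged 381 CPM against 3.15 CPM (121-fold, log2 6.85 ± 0.66, edgeR adjusted p = 0.000776). Cacna1g stood at 117, 119, 44.7, 216 and 60.8 CPM in upper libraries, against 0 to 15.1 CPM in PV basket libraries (22.3-fold, log2 4.41 ± 0.47, adjusted p = 0.000776). The 5 upper libraries lay above all 16 PV basket libraries, which formed the 8 pairs given above, in both genes. Such separation is a condition of being named by the rule. Cacna2d3, which encodes an accessory calcium channel subunit, stood at 398, 271, 291, 529 and 774 CPM in upper libraries, against 16.6 to 51.9 CPM in PV basket libraries (14.4-fold, log2 3.78 ± 0.40, adjusted p = 0.000776). Kit, Cacna1g and Cacna2d3 passed in every alternative that was run.

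Of the markers, Cpne5 was 68.5-fold higher (edgeR adjusted p = 0.0349), Hs3st4 37.7-fold (0.0157) and Pthlh 35.0-fold (0.0206) than in PV basket cells. Unc5b (349 CPM in upper cells and 3.86 CPM in PV basket cells, adjusted p = 0.0926), Trps1 (1071 and 114 CPM, 0.123) and Nkx2-1 (76.4 and 20.5 CPM, 0.397) were not called. The A-type channel genes Kcnd2 (3.31-fold, 0.032) and Kcnd3 (10.1-fold, 0.033), the synaptic genes Elfn1 (8.95-fold, 0.0222) and Clstn2 (5.00-fold, 0.00131), the adhesion gene Sdk1 (5.70-fold, 0.0445) and Egr1 (30.9-fold, 0.0273) were higher. Adarb2, an RNA-editing family gene of the caudal eminence lineage, was also called higher (0.033), with 1638 CPM in library 1 and 57.7 to 226 CPM in the other upper libraries, against a mean of 34.8 CPM in PV basket cells. The protocadherin gene Pcdh8 (log2 3.46, 0.0206) and Rph3a, which encodes the vesicle protein rabphilin (log2 3.29, 0.0235), were higher at 261 to 452 CPM and at 91.0 to 109.6 CPM in upper libraries. Without library 2 the adjusted p was 0.065 for Kcnd2, 0.21 for Egr1 and 0.06 for Sdk1, and Sdk1 also failed without library 3 (0.052), library 5 (0.072), deep library 2 (0.062) or deep library 4 (0.064). Kcnd2 failed without library 5 (0.0513) or deep library 2 (0.11) and Kcnd3 without library 3 (0.058).

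Lower than in PV basket cells were the exchanger gene Slc24a2, at 41.8 to 245 CPM in upper libraries against 774 to 1353 CPM in PV basket libraries (7.59-fold lower, edgeR adjusted p = 0.0381), and the scaffold gene Iqgap2, at 4.36 to 32.9 CPM against 151 to 333 CPM (12.3-fold, 0.029). Lypd6b was 33.0-fold lower (0.032), Tmem14c 10.6-fold (0.033), Rasgrf2 9.75-fold (0.0235) and Etl4 6.89-fold (0.033). The neurofilament heavy chain gene Nefh was 6.51-fold lower at 12.7 to 56.1 CPM in upper libraries (0.033), the vesicular GABA transporter gene Slc32a1 was lower at 1277 CPM against 2489 CPM (log2 -1.03, 0.0456), and Plxna2 fell by 2.27 ± 0.42 on the log2 scale (0.033). Upper and PV basket libraries did not overlap in Nefh. Pvalb averaged 422 ± 137 CPM in upper cells and 1023 ± 92.4 CPM in PV basket cells (SD, n = 2 each) without overlap of their libraries, and was not called (log2 -1.34 ± 1.00, adjusted p = 0.781). The share of all genes without such overlap was not computed. For Nefh and Pvalb the lack of overlap is thus a description and does not show a difference. All 6 lower genes named by the rule failed without animal 14, and Rasgrf2 (0.17), Nefh (0.084) and Plxna2 (0.14) without library 2. Slc24a2 (0.058) and Etl4 (0.055) failed without library 4, Nefh without library 5 (0.051), Iqgap2 without deep library 2 (0.33) or 4 (0.12), Nefh without deep library 2 (0.13) and Plxna2 without deep library 4 (0.058).

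**Figure D5:**
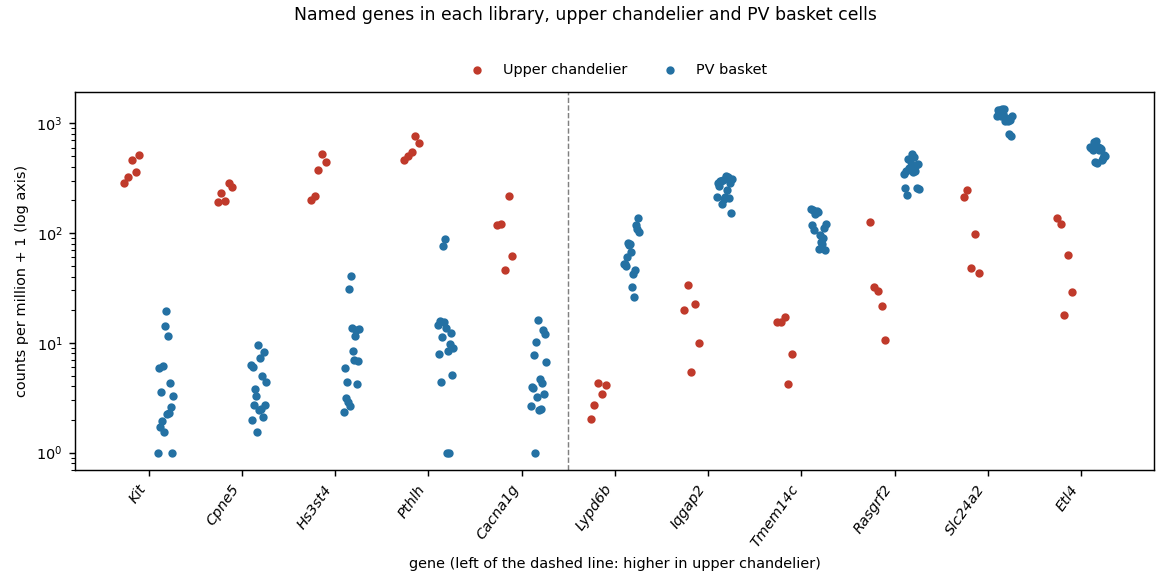
CPM + 1 (log axis, so that 1 stands for no count) of 11 of the genes named by the rule between upper chandelier and PV basket cells, 1 point per library, with the 5 upper libraries left of the 16 PV basket libraries for each gene and genes higher in upper cells left of the dashed line. Kit lies at 288 to 510.2 CPM in upper libraries and at most at 18.4 CPM in PV basket libraries, and Slc24a2 at 41.8 to 245 CPM against 774 to 1353 CPM.

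Long-projecting cells, Sst and Nos1 neurons with axons that leave their own area, are the one type sequenced on the same flow cell. By edgeR's quasi-likelihood test 633 genes passed (4.08%), 320 higher (2.06%) and 313 lower (2.02%), with 2358 at an unadjusted p under 0.05 and an all-gene median log2 fold change of -0.03. In a fit of these 2 types alone, which share the flow cell, the count was 2299, and 626 of the 633 genes were among them. It was 244 without animal 13, 173 without animal 14, 370 without animal 15, 368 without animal 16 and 382 without animal 18. Of the chandelier markers, 5 of 6 were higher and Cpne5 was not called (log2 2.47 ± 0.77, adjusted p = 0.101). The 4 comparisons share the upper libraries, so their lists of genes are not independent.

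Pthlh averaged 579 CPM in upper cells and had 1 count in all long-projecting cells (edgeR adjusted p = 5.49e-06). Cox6a2, the muscle and heart form of a cytochrome oxidase subunit, stood at 57.3 to 104 CPM in upper libraries and also had 1 count in long-projecting cells (adjusted p = 0.000173), as had Krt12 (0.00237) and Ibsp (0.00529). Pvalb was 214-fold higher (log2 7.75 ± 1.01, adjusted p = 0.000518). Erbb4, at 2192 to 3677 CPM in upper libraries against a mean of 77.9 CPM, rose by 5.12 on the log2 scale (5.68e-06), Mef2c by 4.53 (8.97e-07) and Kit by 5.35 (1.52e-05). The synaptic organiser list had 9 of 48 higher and 0 lower, against 2.06% and 2.02% of all genes, with a median log2 fold change of 0.31, among them the netrin G ligand gene Lrrc4c (log2 4.31, 0.00151), the neuroligin gene Nlgn1 (1.58, 0.0002) and Clstn2 (2.45, 1.62e-05). Among channels of fast-spiking cells, the Kv3 gene Kcnc1 was higher at 287 to 652 CPM in upper libraries (log2 2.16, 0.000284).

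Sst, a driver gene of the long-projecting type and a neuropeptide, had 4 counts in upper cells, at 3.12 CPM in library 1 and at most 0.799 CPM in the others, against 1963 to 2707 CPM in long-projecting libraries (3884-fold lower, log2 -12.07 ± 0.57, edgeR adjusted p = 4.43e-07). Nos1 was 105-fold lower (adjusted p = 0.011) and Calb2, the calretinin gene, 216-fold lower (0.00315). Pcdh18 had no upper count and was at least 341-fold lower (0.00932), the choline transporter gene Slc5a7 at least 241-fold (0.00124) and the secreted ligand gene Wnt2 at least 193-fold (0.0256). Chodl, a long-projecting marker, had a single upper count, in library 1, against 489 to 724 CPM (0.0165, and 0.1 without a filter on low counts). Since Sst and Nos1 drivers chose the long-projecting cells, their levels describe that choice. The muscarinic receptor gene Chrm2 (log2 -4.25, 0.00252) and the oxytocin receptor gene Oxtr (log2 -6.59, 0.000732) stood at 10.4 to 17.7 CPM and 0 to 4.79 CPM in upper libraries, against means of 232 and 233 CPM. Htr3a and Prox1, caudal lineage genes, were called higher (0.0485 and 0.0264) with 46.8 and 40.6 CPM in library 1 and at most 1.09 CPM in any other upper library.

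Over all genes, upper chandelier libraries had their highest median correlation with each other. Correlation of log2(CPM + 1) over genes had a median of 0.822 between upper libraries (0.803 to 0.848, 10 pairs), and medians of 0.799 with PV basket, 0.778 with long-projecting, 0.744 with CCK basket, 0.729 with Martinotti, 0.725 with deep chandelier and 0.696 with interneuron-selective libraries. Deep chandelier libraries correlated with each other at a median of 0.683 (0.622 to 0.741). These correlations run across genes, share library depth and preparation, and are given as a description. Libraries 1 and 2 of animal 13 correlated at 0.839, and pairs across the 2 animals at 0.803 to 0.848.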

How the data were processed

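Single neurons from mouse cortex were labelled by genetic drivers, isolated by slicing, dissection and trituration and sequenced in pooled libraries, with linear amplification of polyadenylated RNA and random tags, per the labels' protocols. Reads were aligned to mm9 with Bowtie 0.12.7, per the submitters' processing notes, and the sources used here do not give whether tags were collapsed. The authors deposited expected counts per gene and cell, of which 4.07% of values above 0 were not whole (tolerance 1e-06).

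Counts were summed per library and per animal, rounded, and tested with edgeR 4.0.16 (quasi-likelihood test, TMM scaling, low-count filter by type, robust fit) in R 4.3.3, in 1 fit of 7 types and 16 replicates, with Benjamini-Hochberg adjustment over all 15533 genes tested and a threshold of 0.05. DESeq2 1.42.0 was an alternative, and CPM and figures were computed in Python 3.11.15. The script was tested on simulated data. The 16 PV basket libraries formed 8 pairs across the labels of animals 7 and 8, or 9 and 10, that differed by 1.16 to 1.58 times the sampling noise, so each 2 animals were counted as 1 replicate. The labels number 18 animals while the series' design text speaks of 4, so p-values measure the spread between labelled animals, which may not all be separate. Whether the label of animal 14, with its differing ages, stands for a single animal is not known. Floors of 3 counts cover counting error only.

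Genes were named by a rule: always the markers and driver genes, and otherwise the largest log2 fold changes among genes with an adjusted p under 0.05, at least 50 CPM and libraries that do not overlap (against the other types, all 5 libraries beyond every other type's mean), up to 20 higher and 10 lower against the other types, 12 a side against deep chandelier, 6 against PV basket and 5 against long-projecting cells. Clone names, predicted genes and genes with identical rows were passed over, and members of 44 gene lists could be named with their list. The members, lists and tests were chosen with earlier results of these data known. Alternatives were another scaling, tool, filter, grouping of samples, a replicate block and leaving out animals or libraries. Some genes that met the rule or passed within a list are not reported here.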

Additional observations from a re-analysis of the deposited data

Results flagged for a closer look

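In 19 of 123 genes, 1 of the 5 upper chandelier libraries lay far from the other 4, with a gap to the nearest of them above 0.71 of the whole range, a limit that chance passes in about 1 of 20 groups. The 123 genes were named with these data known, some because 1 library stood apart, and all share the same 5 libraries. Their count is therefore a description and cannot be set against that rate. No explanation was tested. In library 1, Vip stood at 374 CPM against 0 in the other 4 libraries, Cnr1 at 794 CPM against at most 8.79 CPM, Cxcl14 at 189 CPM against at most 1.09 CPM, Zbtb16 at 73.8 CPM against at most 28.2 CPM and Rasgrf2 at 125 CPM against at most 31.2 CPM. Sst at 3.12 CPM and Chodl at 1.04 CPM in library 1 rest on single-digit counts. In library 2, Hba-a1 stood at 5206 CPM against at most 97.7 CPM and Hbb-b1 at 3032 CPM against at most 61.3 CPM, while Grm4 at 0.427 CPM was a single count.

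In library 5, Fos stood at 3612 CPM against at most 1367 CPM in the other 4 libraries, Egr4 at 332 CPM against at most 64.1 CPM, Nr4a1 at 414 CPM against at most 76.7 CPM, Nr4a3 at 86.8 CPM against at most 7.69 CPM and Clstn2 at 1711 CPM against at most 1012 CPM. In library 3, Zfp868 stood at 181 CPM against at most 52.7 CPM. In library 4, Aen stood at 160 CPM against at most 51.3 CPM and Lhx6 at 319 CPM against at most 209 CPM, while Banf2 at 0.799 CPM was a single count.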

How the results depend on the processing

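The alternatives were followed gene by gene for 145 calls of named genes, of which 32 held under all alternatives run, and 0 changed direction. Other calls named from lists were not among these. They include Bsn, Rims1, Cacna2d1 and Hapln1 against deep chandelier cells, and most list genes named against long-projecting cells. Against the other 6 types, 296 genes passed in the reported fit, 533 with 18 labelled animals, 546 with DESeq2, 558 with library 3 as its own replicate, 989 on unblocked library sums and 193 without library 2 (158 shared), and 47 to 448 when 1 replicate was left out. Against deep chandelier cells, 440 became 1151 with 18 animals, 2105 with DESeq2 (977 higher, 1128 lower), 1010 with library 3 apart, 2581 on unblocked library sums, 682 without both doubted deep libraries (an alternative chosen after seeing the data) and 0 with the chandelier animals alone, where fewer samples entered, and 43 to 1343 when 1 replicate was left out. Against PV basket cells, 62 became 392, 421, 129 and 1560 with 18 animals, DESeq2, library 3 apart and unblocked library sums, and 7 to 129 when 1 replicate was left out. Against long-projecting cells, 633 became 1282 with DESeq2, 1591 on unblocked library sums and 2299 in a fit of the 2 types alone, and 173 to 912 when 1 replicate was left out. The fit of the 2 types alone held the same libraries of these types, on the same flow cell, and left out only the other types. The cause of the shifts in these counts was not tested. The title numbers did not pair the libraries (median correlation of deviations 0.00064 over 26 pairs), and library sums with a replicate block gave 480, 1101, 530 and 974 calls in the 4 comparisons. With 2 upper animals and a biological coefficient of variation of 61.7%, small differences were not detectable.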
